A study of Mus musculus with 12 samples.

Results

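The muscle side of the neuromuscular junction was represented by 9 of the 15113 genes in the count table, measured in C2C12 myotubes treated with BAM15, a small-molecule protonophore that carries protons across the inner mitochondrial membrane and so uncouples respiration from ATP synthesis. With earlier results of these data known, the genes were chosen by name, by a rule that uses no measured value. They comprise the 5 subunits of the muscle nicotinic acetylcholine receptor, Chrna1, Chrnb1, Chrnd, Chrng and Chrne, and 4 genes whose products cluster the receptor, signal to it or end its transmission, Musk, Dok7, Rapsn and Ache. C2C12 is a mouse myoblast line, here differentiated into myotubes in 2% horse serum, with no nerve in the culture. RNA was sequenced as 3′ tags from 6 libraries exposed to 20 µM BAM15 in DMSO for 16 h and from 6 libraries exposed to vehicle, the only groups of the design. Both groups came from the same line and the same differentiation, and the labels do not say whether libraries came from separate cultures, so the p-values measure the spread between these libraries, which may be technical.

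At the neuromuscular junction the motor nerve releases acetylcholine, which opens a pentameric cation channel in the muscle membrane and depolarises the fibre. The channel holds a pair of α subunits (Chrna1) with β (Chrnb1), δ (Chrnd) and either the fetal γ (Chrng) or the adult ε (Chrne) subunit. Agrin from the nerve binds LRP4, which activates the receptor tyrosine kinase MuSK. DOK7 is the cytoplasmic adaptor that MuSK needs for full activity, rapsyn (Rapsn) is the scaffold that packs receptors together under the membrane, and acetylcholinesterase (Ache) hydrolyses the transmitter in the cleft. In muscle cells that lack a nerve, the receptor genes are switched on during differentiation by myogenic factors that bind E-boxes in their promoters, while an N-box bound by ETS factors serves expression under the synapse.

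The promoters of 7 of the 9 genes were matched in RefSeq (GRCm38.p6). The 160 bases upstream of the start site are shown for the 4 that hold the muscle E-box CAGCTG, since these are the letters through which myogenic factors are known to act on receptor genes. Capitals mark E-boxes (CANNTG, both strands) and the N-box (CCGGAA, both strands), and CAGCTG is 1 form of CANNTG, so the counts of both overlap.
Chrna1 (chr2:73580339-73580498, minus strand): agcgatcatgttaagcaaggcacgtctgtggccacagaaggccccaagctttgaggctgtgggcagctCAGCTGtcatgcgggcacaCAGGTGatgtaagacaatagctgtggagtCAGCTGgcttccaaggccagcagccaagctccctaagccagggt
Chrng (chr1:87205651-87205810, plus strand): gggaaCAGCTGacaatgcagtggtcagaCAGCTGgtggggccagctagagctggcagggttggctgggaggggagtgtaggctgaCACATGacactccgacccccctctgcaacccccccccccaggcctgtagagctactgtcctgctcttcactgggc
Chrne (chr11:70619195-70619354, minus strand): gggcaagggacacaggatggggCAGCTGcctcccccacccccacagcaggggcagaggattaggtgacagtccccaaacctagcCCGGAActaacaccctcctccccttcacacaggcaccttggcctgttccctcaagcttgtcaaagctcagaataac
Musk (chr4:58285802-58285961, plus strand): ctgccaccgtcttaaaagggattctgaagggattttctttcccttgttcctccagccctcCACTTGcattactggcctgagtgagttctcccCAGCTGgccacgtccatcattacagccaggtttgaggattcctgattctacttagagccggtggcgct
In the window from 250 bases before to 50 after the start, Chrna1 held CAGCTG at -92 and -44, Chrng at -155 and -132, Chrne at -138 and Musk at -68, each position being that of the first base of the match counted from the start site. Among 32851 promoter windows of the same length, 16.3% held CAGCTG at least once and 1.9% held it 2 or more times. Chrne also held the N-box at -76, which 14.9% of all windows hold. Chrnb1 held 3 E-boxes of other letters, Ache held 1, and Dok7 held 1 at the first of its 2 start sites, against 72.3% of all windows with any CANNTG. A match describes letters in the window and shows no binding.

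Library totals ran from 13983725 to 18866728 counts. Myotube markers were high throughout, with Acta1, skeletal α-actin, at 117809 or more and Myh3, embryonic myosin heavy chain, at 32577 or more normalized counts in every library (counts scaled by edgeR's trimmed mean of M-values to the mean library size). Among BAM15 libraries, 5 and 6 stood farthest from 1 to 3, at a chi-square per gene of 44.3 to 84.7, while library 4 lay at 15.5 to 26.3 from 1 to 3 and at 28.9 and 30.5 from 6 and 5. The division of the libraries into numbers 1 to 3 and 4 to 6, taken from earlier work on these data, therefore puts library 4 with libraries it did not resemble most. No label names a batch there, and the 9 genes are given within this division as well.

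In vehicle myotubes the fetal receptor was the one expressed. A 3′ tag is read once near the end of a transcript, so its count does not scale with transcript length and levels were compared between genes as CPM, which scale each library to a common total. Chrna1 stood highest at 1294 ± 84.6 CPM (SD, n = 6), followed by Chrng at 651 ± 29.97, Chrnd at 310 ± 47.9, Rapsn at 160 ± 5.54 and Chrnb1 at 117 ± 3.55 CPM. Dok7 at 45.6 ± 1.49 and Musk at 38.6 ± 6.31 CPM were neighbours whose ranges over libraries overlapped. Ache at 3.16 ± 0.337 and Chrne at 1.36 ± 0.252 CPM were near the bottom, and Chrne was read by only 15 to 30 counts in a vehicle library. Chrng made up 99.75% to 99.84% of the counts of Chrng and Chrne together in vehicle and 99.76% to 99.88% after BAM15, ranges that overlapped almost fully. The order of the 9 genes was the same after BAM15, but there Rapsn (122 ± 4.76 CPM) overlapped Chrnb1 (114 ± 13.6 CPM) and Ache overlapped Chrne.

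**Figure D1:**
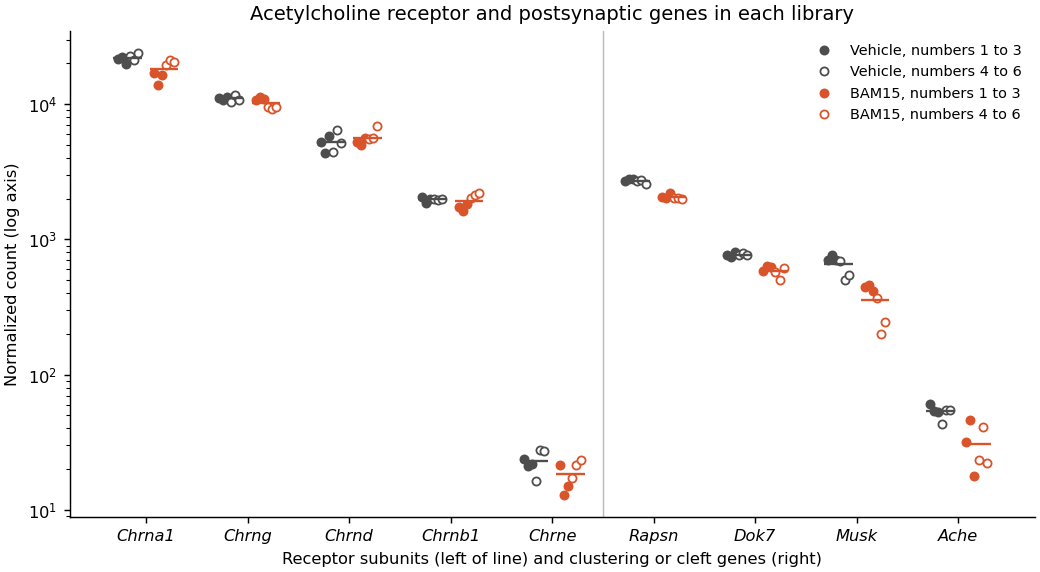
Normalized counts of the 9 genes (log axis) in each of 6 vehicle and 6 BAM15 libraries, with filled points for library numbers 1 to 3 and open points for 4 to 6. The groups do not overlap for Rapsn, Dok7 and Musk, whereas the 5 receptor subunits and Ache overlap.

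BAM15 was accompanied by lower RNA of the clustering, signalling and cleft genes, while none of the 5 receptor subunits passed the test over all libraries. In the quasi-likelihood fit of edgeR, with p-values adjusted by Benjamini-Hochberg over all 12730 genes tested, Musk, Rapsn, Dok7 and Ache were lower at an adjusted p below 0.01 and none of the 9 genes was higher. DESeq2 and limma-voom each gave 4 lower and 0 higher. These 4 of 9 (44.4%) compare with 20.3% of all genes called lower, 22% called higher and 42.3% called in either direction, so the share called in any direction was near that of all genes. Their median log2 fold change was -0.31, against 0.02 over all genes tested. In bulk RNA, fewer cells of a type and less RNA per cell cannot be told apart. None of the 9 passed the study's 3 thresholds together (adjusted p below 0.01, base mean above 50 and a change above 2-fold) by edgeR, DESeq2 or limma-voom, against 7.28% of all genes by edgeR (3.58% lower and 3.7% higher). Without overlap between the groups, 3 of the 9 genes lay below vehicle, where 17% of all genes did, and none lay above, where 17.1% did.

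Chrna1, which carries most of the acetylcholine-binding surface, spanned 19623 to 23726 normalized counts in vehicle (median 21925) and 13944 to 21220 after BAM15 (median 18163). All 6 BAM15 libraries lay below the vehicle mean, yet the ranges overlapped. The means were 21881 ± 1430 and 18013 ± 2766 (SD, n = 6 each), and the log2 fold change of -0.28 (SE 0.09) missed the threshold (edgeR adjusted p = 0.0184, unadjusted p = 0.00849). It passed when the division by library number was blocked (edgeR adjusted p = 0.00119) and without BAM15 library 5 (0.00441). Chrng, the fetal γ subunit, spanned 10303 to 11710 (median 10944) and 9181 to 11197 (median 10183), and its log2 fold change was -0.11 (edgeR adjusted p = 0.148, 95% interval -0.23 to 0.01), or -0.18 with scaling by library size alone, which passed (0.00992). Chrnd, the δ subunit, was the only subunit with a higher mean, 5241 ± 810 in vehicle and 5642 ± 676 after BAM15 with ranges of 4343 to 6456 and 5005 to 6933 (log2 fold change 0.11, edgeR adjusted p = 0.397, interval -0.09 to 0.30). Leaving out 1 library moved that estimate between 0.04, without BAM15 library 6, and 0.17, without vehicle library 5. These groups overlapped through most of their ranges.

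Chrnb1, the β subunit through which agrin signalling tyrosine-phosphorylates the receptor, stood at 1862 to 2042 in vehicle and 1624 to 2200 after BAM15, with 3 of 6 BAM15 libraries below the vehicle mean. Its log2 fold change of -0.04 had an interval of -0.18 to 0.10 (edgeR adjusted p = 0.699). Chrne, the adult ε subunit, held 16.2 to 27.8 normalized counts in vehicle and 12.96 to 23.3 after BAM15. With such counts its change of -0.31 on the log2 scale (interval -0.70 to 0.07, edgeR adjusted p = 0.191) could not be separated from 0 at this depth. Intervals here are 95% intervals, taken as 1.96 standard errors either side of the estimate. A p that misses the threshold does not show that a subunit was unaffected.

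Summed over its 5 subunits, the receptor held 2298 to 2462 CPM in vehicle (median 2346) and 1880 to 2308 CPM after BAM15 (median 2102), and the ranges touched. Chrna1 took a median of 55.4% of that sum in vehicle and 50.4% after BAM15, while Chrnd took 12.7% and 15.4%.

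Within a library, the counts of 1 subunit can be set against those of another without any scaling between libraries. The ratio of Chrnb1 to Chrna1 spanned -3.59 to -3.30 on the log2 scale in vehicle and -3.31 to -3.10 after BAM15, and its mean was 0.25 higher (SE 0.06, 6 of 6 BAM15 libraries above the vehicle mean). A two-sided exact permutation test over the 924 possible assignments of the 12 labels gave p = 0.00433, or 0.0173 after Benjamini-Hochberg adjustment over the 4 ratios, which passed the threshold of 0.05 used for these ratios. Here the smallest p such a test can give is 0.00216. Chrnd rose against Chrna1 by 0.41 (SE 0.14, exact permutation p = 0.0195, adjusted 0.0390, above the vehicle mean in 6 of 6). Leaving out 1 library ended the Chrnd call in 8 of 12 cases, and over all 12 the adjusted exact permutation p ran from 0.0260 to 0.0779. The ratios of Chrng (0.18, exact permutation p = 0.279, adjusted 0.372) and Chrne (-0.02, exact permutation p = 0.911) did not pass. The subunit RNAs were already unequal in vehicle, and relative to Chrnb1 that of Chrna1 was lower after BAM15 than in vehicle. Relative to Chrnd it went the same way, by a call that depended on single libraries.

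**Figure D2:**
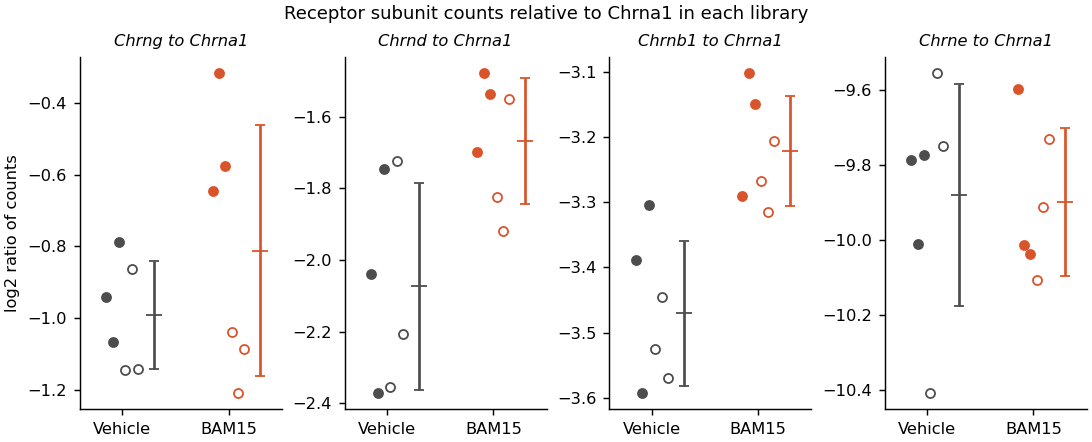
Log2 ratio of counts of each receptor subunit to Chrna1 in each library, with filled points for numbers 1 to 3, open points for 4 to 6, and mean ± SD (n = 6) beside them. The means after BAM15 are 0.25 higher for Chrnb1 and 0.41 higher for Chrnd, and Chrng splits by library number in the BAM15 group.

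Musk, the receptor tyrosine kinase that organises the junction, had the largest log2 fold change of the 9 genes over all libraries, though Ache was within its error and was further from 0 within library numbers 1 to 3. Musk stood at 498 to 772 normalized counts in vehicle (median 699) and 199 to 460 after BAM15 (median 391), so that every BAM15 library lay below every vehicle library. The means of 652 ± 107 and 355 ± 109 (SD, n = 6 each) gave a log2 fold change of -0.88 (SE 0.19, edgeR adjusted p = 0.00171), a level of 0.544 of vehicle. Dok7, the adaptor of MuSK, stood at 739 to 811 (median 763) in vehicle and 497 to 636 (median 597) after BAM15, again without overlap. It fell by 0.39 on the log2 scale (SE 0.06, edgeR adjusted p = 1.01e-04).

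Rapsn, the receptor scaffold, varied little between libraries (coefficient of variation 3.46% in vehicle and 3.92% after BAM15). It held 2545 to 2809 normalized counts in vehicle (median 2717) and 1985 to 2210 after BAM15 (median 2030), with no overlap, and fell by 0.40 on the log2 scale (SE 0.05, edgeR adjusted p = 3.65e-06). Rapsn and Dok7 thus fell by nearly the same amount, and over the 12 libraries they were the closest of the 36 pairs among the 9 genes, with a root mean square difference of 0.0926 in log2 CPM relative to the vehicle mean. Ache, the acetylcholinesterase, was read at 43.3 to 60.8 normalized counts in vehicle (median 54.4) and 17.9 to 46.5 after BAM15 (median 27.8). All 6 BAM15 libraries lay below the vehicle mean but the ranges overlapped, and the log2 fold change was -0.80 (SE 0.21, edgeR adjusted p = 0.00437). The Ache call missed the threshold when either vehicle library 1 (edgeR adjusted p = 0.0114), BAM15 library 4 (0.0121) or BAM15 library 6 (0.01002) was left out.

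**Figure D3:**
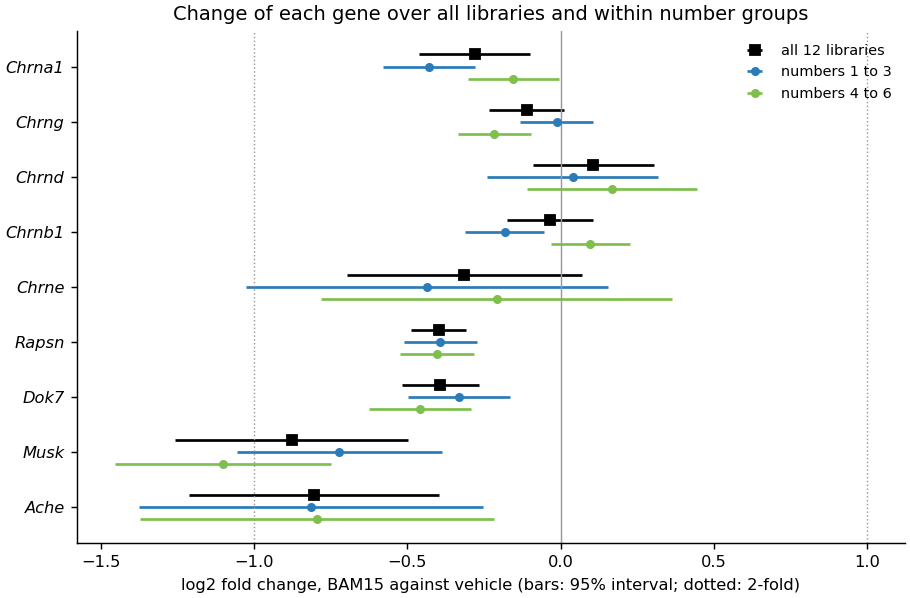
Log2 fold change of each gene after BAM15 with 1.96 standard errors, over all libraries and within library numbers 1 to 3 and 4 to 6, with dotted lines at 2-fold. Musk, Rapsn, Dok7 and Ache lie below 0 over all libraries and in both divisions, while the estimate of Chrnb1 is -0.18 in 1 division and 0.10 in the other.

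BAM15 libraries 4 to 6 differed from BAM15 libraries 1 to 3 in the mean level of several of these genes. Their means, for numbers 1 to 3 and 4 to 6, were 15714 and 20313 normalized counts for Chrna1, 1729 and 2116 for Chrnb1, 10978 and 9399 for Chrng, and 439 and 270 for Musk. The second mean of Musk joins library 4, at 366, with libraries 5 and 6, at 199 and 245. Within numbers 1 to 3 the change of Chrna1 was -0.43 (edgeR adjusted p = 1.31e-04) and within 4 to 6 it was -0.15 (0.0962). Chrng went the other way, -0.01 (edgeR adjusted p = 0.869) and -0.22 (0.00586). Musk fell within both, by 0.72 (edgeR adjusted p = 0.00306) and by 1.10 (1.71e-04), and so did Rapsn, by 0.39 and 0.40, and Dok7, by 0.33 and 0.46. Among all genes, 19.4% were called lower within numbers 1 to 3 and 20.1% within 4 to 6. Ache had changes of -0.81 (edgeR adjusted p = 0.0239) and -0.80 (0.0304), below vehicle in both but past the threshold in neither. A test of the difference between the divisions passed for none of the 9, with the smallest edgeR adjusted p at 0.0838 for Chrnb1, and for 0 of 12730 genes by edgeR, of which 3313 had an unadjusted p below 0.05.

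Among all tested genes, the 3 whose profile over the 12 libraries was nearest to Musk's were Tmem121, Mid1 and Vgll4, at root mean square differences of 0.155, 0.159 and 0.163 in log2 CPM. Nearest to Rapsn were Impad1 (0.0459), Gpx1 (0.0530) and Fam133b (0.0539), and nearest to Dok7 were Ctnnbip1 (0.0510), Zmpste24 (0.0528) and Nfix (0.0561). Ache was matched less closely, by Lrrc14b (0.221), Sapcd2 (0.228) and Gm8883 (0.265). The whole 400-base end of Lrrc14b lies opposite Ccdc127, and the end of Ctnnbip1 lies opposite Gm13066 over 302 of 800 bases. For Nfix, 80 of 1030 end bases lie opposite G430095P16Rik and 4 opposite Lyl1. The strand setting of the counting was not given, so the reads of these genes are uncertain, most of all for Lrrc14b.

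The genes around the 9 moved in both directions. Of 98 further genes tested in 9 lists covering the pathway, the muscle and the other cells a culture could hold, 36 were lower (36.7%) and 18 were higher (18.4%) at an edgeR adjusted p below 0.01, against 20.3% and 22% of all genes. Several of these estimates were unequal within library numbers 1 to 3 and within 4 to 6, although no gene passed the edgeR test of that difference, such as Dnaja3 (0.78 and 1.77), Myf5 (1.00 and 2.07), Cdk1 (-2.16 and -1.02), Abl2 (-0.15 and -0.50), Utrn (-0.14 and -0.49), Gmppb (0.49 and 0.15) and Lrp4 (-0.55 and 0.15).

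Of 18 other genes of agrin and MuSK signalling, 5 were lower, 3 higher and 10 did not pass (median log2 fold change -0.15). Agrn, which encodes agrin, rose by 0.55 on the log2 scale from 259 ± 22.2 to 380 ± 45.1 normalized counts (edgeR adjusted p = 1.03e-04), and Dnaja3, a mitochondrial and cytosolic co-chaperone that binds MuSK, rose by 1.37. The kinases Pak1 (-1.18), Prkca (-0.65) and Abl2 (-0.31) fell. Lrp4, the agrin receptor, did not pass, with 251 ± 58.3 and 233 ± 112 normalized counts (edgeR adjusted p = 0.779). The RNA of Agrn and that of Musk thus moved in opposite directions, in a culture without a nerve.

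Of 14 postsynaptic scaffold genes, 4 were lower and 2 higher (median -0.28). Dag1, the laminin receptor dystroglycan, fell from 13629 ± 694 to 8538 ± 591 normalized counts, a log2 change of -0.67, and Nes, the intermediate filament nestin, and Ank3, ankyrin-G, fell by 0.69 and 0.74. Ank2, ankyrin-B, rose by 2.61 from 55.4 ± 12.9 to 338 ± 19.5, and Sntb2, β2-syntrophin, rose by 0.61. Utrn, the dystrophin relative enriched at the junction, had -0.31 and did not pass (edgeR adjusted p = 0.0163). Over 24 alternatives its estimate ran from -0.49 to -0.14, and it passed in 7, among them DESeq2 (adjusted p = 0.00705). Of 11 tested cleft and basal lamina genes, 4 were lower and 1 higher (median -0.35).

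Colq, the collagen tail that anchors acetylcholinesterase in the basal lamina, had 60.3 ± 17.1 and 36.3 ± 4.53 normalized counts, a log2 change of -0.73 that passed by edgeR (adjusted p = 0.00478) but not by limma-voom (adjusted p = 0.0141). Colq shares 195 of its 878 end bases with Gm49387 on the same strand. Col13a1, a muscle transmembrane collagen of the junction, fell by 0.89, Col4a1 and Col4a2 fell by 0.35 and 0.42, and Nid1, nidogen-1, rose by 1.47 from 782 ± 88.5 to 2164 ± 256. Nid2, the other nidogen, named after its value was seen, had -0.93 with 6 of 6 BAM15 libraries below the vehicle mean and did not pass (edgeR adjusted p = 0.0184). The RNA of Ache, Colq and these collagens was therefore called lower by edgeR over all libraries, while that of Nid1 was called higher. Over 24 alternatives the direction of Ache and Colq was kept, but their calls missed the threshold in 5 and 8.

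Of 7 tested genes of the neuregulin and ETS arm, which drives receptor genes under the nerve, 3 were lower and 2 higher. Erbb2 and Erbb3, the neuregulin receptors, fell by 0.76 and 0.40, and Etv4 by 0.43, whereas Nrg1, neuregulin itself, rose by 0.78 and Etv5, an ETS factor, by 1.33. Gabpa, which binds the N-box, had a change of 0.21 that did not pass (edgeR adjusted p = 0.0365). Of 14 tested genes of the activity and denervation arm, 6 were lower and 4 higher. Myog, myogenin, which binds the receptor E-boxes, rose by 0.37 from 13804 ± 1445 to 17838 ± 2369 normalized counts (edgeR adjusted p = 0.00361), while Myod1 fell by 1.03 and Myf5 rose by 1.69 from a lower level of 148 ± 39.7. Hdac4 and Gadd45a, both known to rise in denervated muscle, rose, Hdac4 from 568.4 ± 59.8 to 1324 ± 161 normalized counts and Gadd45a by 2.18 on the log2 scale. Runx1, known to rise there as well, fell by 0.41, and Ncam1 did not pass (0.11, edgeR adjusted p = 0.0720). The denervation genes did not share a direction.

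Of 5 tested glycosylation genes whose mutation is known to impair receptor assembly, 4 were higher and 1 lower (median 0.33). Alg2 rose by 0.90 from 241 ± 12.4 to 449 ± 36.9 normalized counts, Dpagt1 by 0.41, Gmppb by 0.33 and Gfpt1 by 0.28, and Alg14 fell by 0.41. Leaving out 1 library ended the call of Gmppb in 8 cases, Abl2 and Etv4 in 6 each, Colq and Mymk in 5 each, Ckm in 4, Myog in 3 and Gfpt1 in 1, with edgeR adjusted p of 0.0102 to 0.0191 there and the direction kept. For Myog these were BAM15 library 4 and vehicle libraries 3 and 5. The end of Gmppb overlaps Rnf123 on the opposite strand over 424 of 800 bases.

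**Figure D4:**
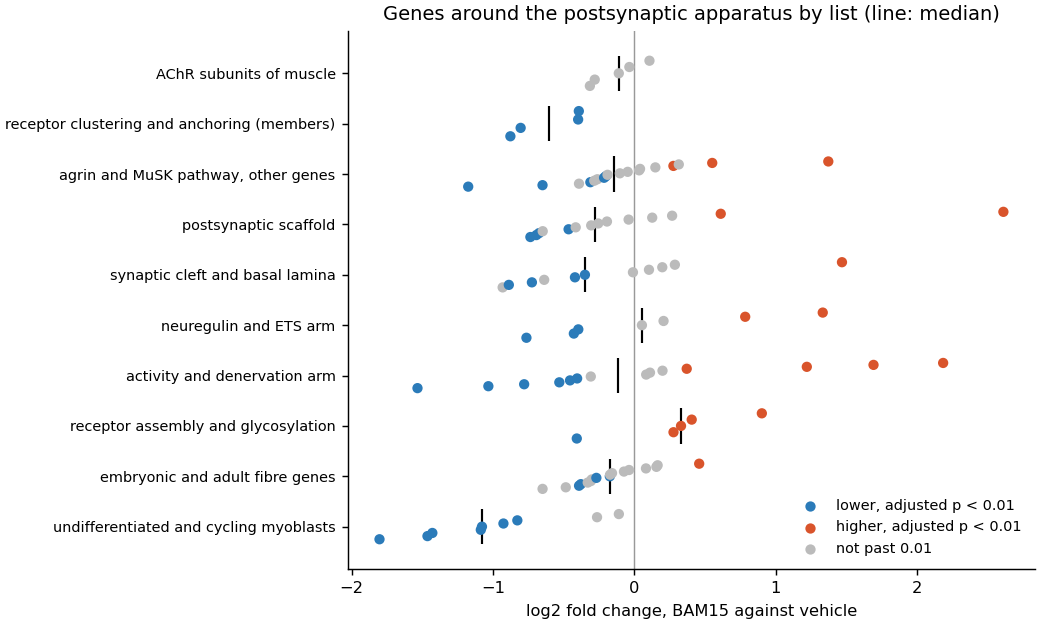
Log2 fold change after BAM15 of each tested gene in the lists around the postsynaptic apparatus, coloured by call at an edgeR adjusted p below 0.01, with the list median as a line. The cycling myoblast list has a median of -1.08 and the glycosylation list 0.33.

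Markers of cells other than myotubes also moved with treatment. Of 9 genes of undifferentiated or cycling myoblasts, 7 were lower and 0 higher, and their summed level went from 11201 to 12034 normalized counts in vehicle to 5258 to 5736 after BAM15. Mki67 (-1.80) and Top2a (-1.46), which mark dividing cells, were among them. Myf5, a further marker of undifferentiated myoblasts that was listed with the activity and denervation arm, went the other way and rose by 1.69. Of 17 fibre genes, 4 were lower, Tnnt2, Mymx, Mymk and Ckm (-0.39, -0.38, -0.27 and -0.17), and Acta1 was higher by 0.46. The median log2 fold change of the fibre genes was -0.17. Their summed level spanned 495335 to 543342 in vehicle and 441302 to 576129 after BAM15, which overlapped. Acta1 had the highest level of the list and rose from 127952 ± 6864 to 175768 ± 14301 normalized counts. The sum therefore weighs Acta1 most and does not show that the other fibre genes were unchanged. The part of the myoblast genes in the lower RNA of Musk, Rapsn, Dok7 and Ache was not tested. Of 11 neuron and Schwann cell markers, 3 were tested. Nefl, neurofilament light chain, fell by 2.80 from 529 ± 96.5 normalized counts and S100b fell by 1.24 from 16.0 ± 4.98, while the neuronal Syt1 did not exceed 1.07 in any library. Among 11 neuronal nicotinic subunits only Chrnb2 was listed, at 11.9 normalized counts or less.

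All 9 genes were placed on GRCm38 with GENCODE M21. Chrnd (chr1:87190607-87200070) and Chrng (chr1:87204657-87212694) lie 4586 bases apart on the plus strand of chromosome 1, and yet differed in the sign of their estimated change, neither past the threshold. Chrna1 (chr2:73563215-73580338, minus strand) and Rapsn (chr2:91035620-91045729, plus strand) are on chromosome 2, Chrnb1 (chr11:69784036-69795943) and Chrne (chr11:70614883-70619216) on the minus strand of chromosome 11, and Dok7 (chr5:35056766-35087839) and Ache (chr5:137287519-137294466) on the plus strand of chromosome 5, with Musk at chr4:58285960-58374303 on the plus strand. Their transcript ends, where the tags fall, shared no run of 50 bases with any other transcript. Only Rapsn's end met another gene, Gm13778 on the opposite strand, over 4 of 403 bases.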

How the data were processed

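RNA of C2C12 myotubes was read with QuantSeq 3′ libraries. The authors deposited raw gene counts (GRCm38/mm10) and, in a second table, a signal equal to those counts divided by 1 size factor per library (0.836 to 1.07, tested), which served here for symbols and that check. The submitters' processing notes name DESeq2 1.22.2. The study's methods name BlueBee software for alignment and forward reads. The aligner it ran and the strand setting of the counting are not given in the sources used here. The 11 columns of other samples were not used. Groups came from the labels. Counts of 12730 genes kept by filterByExpr of 15113 were normalized by TMM and tested with edgeR's quasi-likelihood test (edgeR 4.0.16, R 4.3.3) with Benjamini-Hochberg adjustment, at an adjusted p of 0.01. Subunit ratios (counts plus 0.5) were tested by exact permutation (scipy 1.17.1). The code was tested on simulated data. No replicate pair agreed within sampling noise (chi-square per gene 4.98 to 84.7). The 9 genes, the lists and the division by library number were chosen with earlier results of these data known. Genes named beside the 9 were up to 5 per list past the threshold by size of change, 12 fixed genes, and the 3 nearest profiles of each called gene. Alternatives were DESeq2, limma-voom, library-size scaling, no filter, blocks, the within-division fits and leaving out each library. The depth limits the genes under about 60 counts, Ache and Chrne. Some genes of the lists are not reported here by name.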

Additional observations from a re-analysis of the deposited data

Results flagged for a closer look

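In 8 of 138 groups of 6 libraries, 1 library lay far from the other 5 by Dixon's ratio (critical value 0.625), where chance flags about 1 in 20. Chrnd stood at 6933 normalized counts in BAM15 library 6, with the others at 5005 to 5611. Rapsn stood at 2210 in BAM15 library 3, with the others at 1985 to 2064. BAM15 library 5 was apart for Nefl (48.8), Col4a2 (1398) and Colq (45.1), where the other libraries held 75.9 to 87.6, 1496 to 1536 and 32.9 to 36.9. Among vehicle libraries, Top2a stood at 2799 in library 5, Ckm at 5470 in library 4 and Alg14 at 668 in library 6. No cause was tested.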

How the results depend on the processing

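Over 24 alternatives, 3 to 5 of the 9 genes were lower and 0 higher, and Musk (-1.10 to -0.72), Rapsn (-0.46 to -0.39) and Dok7 (-0.46 to -0.33) passed in each. Ache missed the threshold in 5. Chrna1 passed in 4, with edgeR adjusted p = 0.00441 without BAM15 library 5 and 0.00119 with a block for the division by number, and Chrng in 2, with 0.00992 under library-size scaling. Within numbers 4 to 6, 1 gene passed the 3 thresholds (Musk), Chrnb1 was at 0.10, Lrp4 at 0.15 (-0.55 within 1 to 3) and the Chrng ratio at -0.0607 (adjusted exact permutation p = 0.933). Leaving out 1 library, Chrnb1 spanned -0.0775 to 0.00902 and Lrp4 -0.341 to 0.0302, and the ratios spanned 0.22 to 0.28 (Chrnb1), 0.35 to 0.48 (Chrnd), 0.08 to 0.26 (Chrng) and -0.12 to 0.0464 (Chrne). The Chrnb1 ratio was 0.25 within numbers 1 to 3 and within 4 to 6 (adjusted exact permutation p = 0.133 and 0.400), and the Chrnd ratio 0.48 and 0.33 (0.133 and 0.600), where 3 against 3 cannot go below an unadjusted p of 0.1. The labels number libraries in both groups, but same-numbered libraries correlated at -0.0756 to 0.311, over 0.1 in 4 of 6 pairs, and 2 of 6 BAM15 libraries were closest to their own number, so the numbers were not taken as pairs. With the number as a replicate block Chrna1 passed (edgeR adjusted p = 0.00863), Ckm (0.0145) and S100b (0.0103) no longer did, and under sign flips of these pairs the Chrnb1 and Chrnd ratios of 0.25 and 0.41 no longer did (adjusted exact permutation p = 0.125 each), where 6 pairs cannot go below an unadjusted p of 0.0312, so that this loss can come from the size of the test. In the wider lists, 31 to 46 genes were lower and 14 to 18 higher. No cause of these changes was tested.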
